A study of Saccharomyces cerevisiae with 12 samples.

Results

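The genes described here are 10 genes of budding yeast (Saccharomyces cerevisiae) that serve growth on acetate, ethanol and other carbon sources without sugar. They were chosen by gene identifier as ICL1, MLS1, PCK1, FBP1, ACS1, ACS2, IDP2, SFC1, CAT8 and ADR1, out of 6571 genes in the table of RNA levels. RNA was sequenced from 3 libraries of wild-type cells (WT) and 3 libraries of cells with spt6-tSH2Δ, an allele of SPT6 that lacks the tSH2 domain. Both strains carry the S288C label, and nothing in the labels says how the allele was built or how many clones were used. Spt6 handles histones in front of and behind the transcribing RNA polymerase II, to which its tandem SH2 domain binds. The study asked how Spt6 bears on mRNA stability. Neither strain was treated, and cultures were diluted to an optical density of 0.2 in YPD, a rich medium with glucose, and taken for RNA after 4 h. The growth protocol gives an optical density of 1 as the end of growth, and no density per library.

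When glucose runs out, yeast lives on the ethanol and acetate it has made. Acetyl-CoA synthetases activate acetate, the glyoxylate cycle turns acetyl-CoA into succinate and malate without loss of carbon, and gluconeogenesis turns these acids into sugar phosphates. Many genes of this route, though not ACS2, are repressed in glucose and are switched on through the kinase Snf1 and the activators Cat8 and Adr1. Some of the enzymes are also removed when glucose returns, through the GID ubiquitin ligase.

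Values are RPKM, the reads per kilobase of gene, scaled to the reads of the library. They were divided by a factor per library that sets the median gene alike, and are called rescaled RPKM. As deposited, the median gene stood 0.57 higher on the log2 scale in tSH2Δ than in WT, so a change below is relative to the median gene unless RPKM as deposited is named. Fold changes are log2 differences of rescaled RPKM + 1 with their standard error (SE) from limma. Adding 1 makes the change of genes at low RPKM look smaller. A gene was called higher or lower at a Benjamini-Hochberg adjusted p under 0.05 over all 6307 genes tested, which include all 10 genes. Libraries held 20483931 to 27069700 reads, and SPT6 RNA was at 174 to 185 rescaled RPKM in WT and 83.8 to 85.4 in tSH2Δ, averaged over the whole gene with the part that the allele lacks. RPKM is a share of the RNA sequenced, so RNA per cell was not measured, and a lower level in every cell cannot be told apart from fewer cells that make the RNA. The labels do not say whether replicates are separate cultures, so the spread behind each p-value may be technical.

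Of the 10 genes, 6 were higher in tSH2Δ, 1 was lower and 3 were not called. The genes called higher were ADR1, ICL1, IDP2, FBP1, SFC1 and MLS1, the gene called lower was ACS2, and PCK1, ACS1 and CAT8 passed in neither direction. Among all genes tested, 41.6% were called higher and 41.9% lower. The median log2 fold change was 0.48 over the 10 genes and 0.011 over all genes tested. The libraries of the strains did not overlap for 8 of the 10 genes, 7 of them higher in tSH2Δ and 1 lower, against 42.5% and 42.2% of all genes tested. A call with a log2 fold change of at least 1 was reached by 4 of the 10 genes, ADR1, ICL1, IDP2 and FBP1, and by 7.9% of all genes tested. That 7.9% is over genes of all levels. The 4 genes lay under 32 rescaled RPKM in WT, where 55.4% to 71.9% of genes were called higher, by range of level. How many genes of that level reached a log2 fold change of 1 was not counted.

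**Figure D1:**
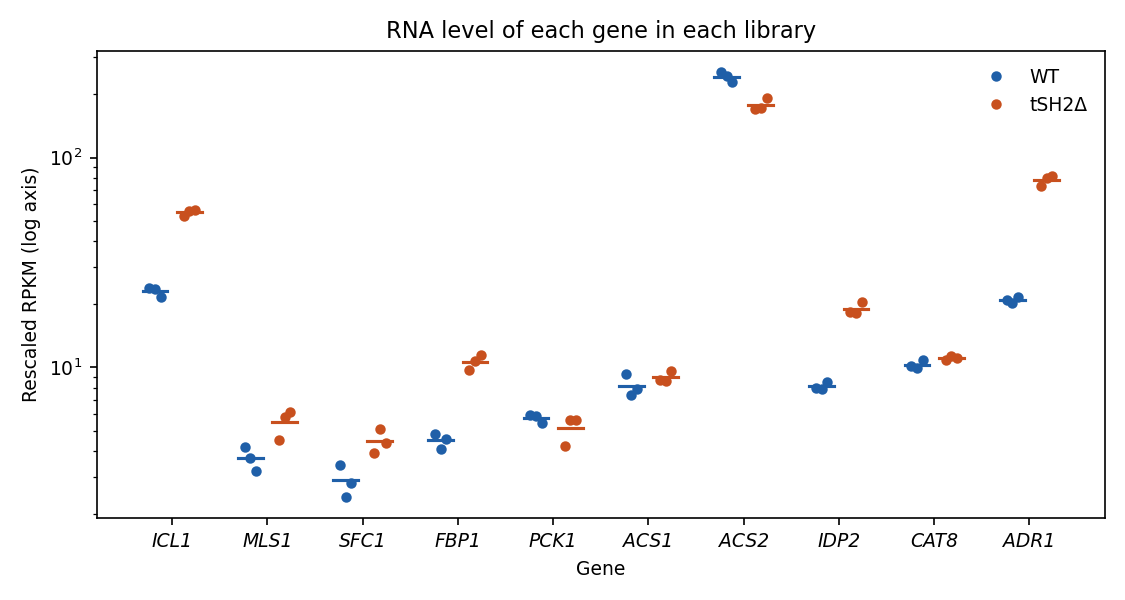
RNA level of the 10 genes (x axis) in each library as rescaled RPKM (y axis, log scale), with points for the 3 WT and 3 tSH2Δ libraries and a line at each mean. ADR1, ICL1, IDP2 and FBP1 stand well apart between strains, ACS2 is the single abundant gene, and the points of PCK1 and ACS1 overlap.

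ADR1 and CAT8 encode the zinc-finger activators of the route, and their RNA differed in how far it moved. ADR1 (YDR216W, chromosome IV, 895035 to 899006, sacCer3) stood at 20.9, 20.2 and 21.7 rescaled RPKM in the WT libraries and at 73.5, 80.1 and 81.5 in the tSH2Δ libraries. The strains did not overlap, and every tSH2Δ library was over 3 times any WT library. The means were 20.9 ± 0.777 and 78.3 ± 4.29 (SD, n = 3), a ratio of 3.74 and a limma log2 fold change of 1.85 (SE 0.051, adjusted p = 1.78e-08). In the ranking of all genes by RPKM, ADR1 moved from the 22.5th percentile in WT to the 67.0th in tSH2Δ.

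CAT8 (YMR280C, chromosome XIII, 827028 to 831329) stood at 10.1, 9.95 and 10.8 rescaled RPKM in WT and at 10.8, 11.4 and 11.1 in tSH2Δ. The tSH2Δ libraries lay just above the highest WT library. CAT8 was not called, with a limma log2 fold change of 0.10 (SE 0.060, adjusted p = 0.155). With RPKM as deposited, where 72.4% of all genes were called higher and 17.3% lower, CAT8 went from 8.42 ± 0.456 to 13.6 ± 0.417 (SD, n = 3) and was called higher (log2 fold change 0.63). After quantile normalization, which gives all libraries the same spread of levels, it was called lower (log2 fold change -0.33). In that fit 40% of all genes were called higher and 41.1% lower. Within a library, the RPKM of ADR1 was 2.02 to 2.06 times that of CAT8 in WT and 6.80 to 7.34 times in tSH2Δ, a comparison that no factor per library changes.

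ICL1 and MLS1 encode isocitrate lyase and malate synthase, the enzymes proper to the glyoxylate cycle. ICL1 (YER065C, chromosome V, 285241 to 286914) stood at 24.0, 23.7 and 21.7 rescaled RPKM in WT and at 52.6, 55.9 and 56.5 in tSH2Δ. The groups were far apart relative to their own spread. The means of 23.1 ± 1.26 and 55.0 ± 2.13 (SD, n = 3) gave a ratio of 2.38 and a limma log2 fold change of 1.22 (SE 0.052, adjusted p = 1.25e-07). Its rank moved from the 24.6th to the 50.3rd percentile of all genes.

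MLS1 (YNL117W, chromosome XIV, 406358 to 408022) stood at 4.16, 3.68 and 3.21 rescaled RPKM in WT and at 4.53, 5.80 and 6.09 in tSH2Δ. The lowest tSH2Δ library was close to the highest WT library, though the groups did not overlap. The limma log2 fold change was 0.46 (SE 0.13, adjusted p = 0.00886), and after quantile normalization it was 0.15 and not called. MLS1 rested on 92 to 331 reads per library. ICL1 RPKM was 5.77 to 6.76 times that of MLS1 in WT libraries and 9.27 to 11.6 times in tSH2Δ libraries. The measured RNA of these consecutive enzymes thus did not keep its proportion. The MLS1 value is uncertain, since how the counting shared reads between it and its close paralog DAL7 is not stated.

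SFC1 encodes the mitochondrial carrier that takes succinate made by the glyoxylate cycle into mitochondria in exchange for fumarate. SFC1 (YJR095W, chromosome X, 609773 to 610741) stood at 3.44, 2.42 and 2.82 rescaled RPKM in WT and at 3.92, 5.10 and 4.37 in tSH2Δ. Every tSH2Δ library was above every WT library. Its limma log2 fold change was 0.49 (SE 0.13, adjusted p = 0.00842), and 0.28 and not called after quantile normalization. This was the gene with the fewest reads, 39 to 155 per library. The lowest count has a 95% Poisson interval of 27.7 to 53.3, which covers counting error only.

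FBP1 and PCK1 encode the enzymes that gluconeogenesis does not share with glycolysis, fructose-1,6-bisphosphatase and phosphoenolpyruvate carboxykinase. FBP1 (YLR377C, chromosome XII, 873746 to 874792) stood at 4.83, 4.08 and 4.55 rescaled RPKM in WT and at 9.68, 10.7 and 11.4 in tSH2Δ. The groups did not overlap. The means were 4.48 ± 0.378 and 10.6 ± 0.874 (SD, n = 3), a ratio of 2.37 and a limma log2 fold change of 1.08 (SE 0.089, adjusted p = 5.88e-06).

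PCK1 (YKR097W, chromosome XI, 631152 to 632801) stood at 5.90, 5.87 and 5.42 rescaled RPKM in WT and at 4.23, 5.63 and 5.63 in tSH2Δ. The groups overlapped, and tSH2Δ replicate 1 was the lowest of the 6 libraries. The limma log2 fold change was -0.13 (SE 0.11, adjusted p = 0.286). PCK1 was called higher with RPKM as deposited, at 4.69 ± 0.168 against 6.32 ± 0.953 (SD, n = 3) and a log2 fold change of 0.36, and after quantile normalization it was called lower (-0.48). Within a library, FBP1 RPKM was 0.695 to 0.839 times that of PCK1 in WT and 1.91 to 2.29 times in tSH2Δ, so these enzymes of the same route changed their order of abundance.

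PCK1 lies on the right arm of chromosome XI, whose genes were mostly lower in tSH2Δ. The median log2 fold change was -0.80 over 101 annotated genes of that arm, -0.90 over 212 genes of the left arm, and 0.042 over 5405 genes of the other chromosomes. On the right arm 87 genes were called lower and 8 higher. Of the 19 measured genes nearest to PCK1, 10 before it and 9 after it, 15 were called lower and 2 higher, with a median of -0.85. The adjacent genes ESL2 and UBP11 changed by -1.01 and -0.85, and counted from the lowest value PCK1 was number 86 of the 101 genes. The mean level in WT was 5.73 rescaled RPKM for PCK1, 92.5 for ESL2 and 49.5 for UBP11. Over all genes tested, the median log2 fold change was 0.50 in the range of level of PCK1. It was -0.17 in that of ESL2 and 0.14 in that of UBP11. The values on this chromosome were not matched for level. Whether the place of PCK1 on this chromosome has a part in its value was not tested.

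**Figure D2:**
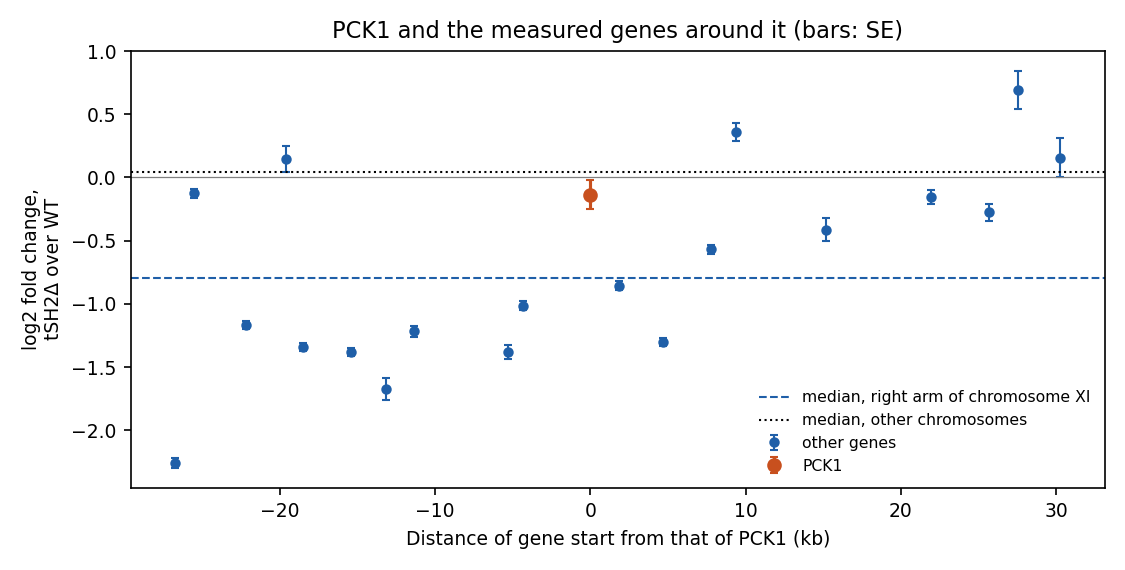
Log2 fold change (y axis, tSH2Δ over WT, bars for the SE) of PCK1 and the 19 measured genes nearest to it, by the distance of their starts from that of PCK1 in kb (x axis). PCK1, at -0.13, lies above the dashed median of its arm (-0.80) and below the dotted median of other chromosomes (0.042). Its neighbours ESL2 and UBP11 lie at -1.01 and -0.85. The median of all genes tested at the WT level of PCK1, 4 to 8 rescaled RPKM, was 0.50 and is not drawn.

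ACS1 and ACS2 encode the acetyl-CoA synthetases, ACS1 the form that glucose represses and ACS2 the form made in glucose. ACS1 (YAL054C, chromosome I, 42881 to 45022) stood at 9.33, 7.35 and 7.86 rescaled RPKM in WT and at 8.66, 8.61 and 9.57 in tSH2Δ. WT replicate 1 lay within the range of tSH2Δ, and ACS1 was not called (log2 fold change 0.12, SE 0.094, limma adjusted p = 0.261). Without that library it was called higher, with a limma log2 fold change of 0.21 (adjusted p = 0.0492). It was called higher with RPKM as deposited (0.64), and after quantile normalization lower (-0.29).

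ACS2 (YLR153C, chromosome XII, 445524 to 447575) stood at 256, 244 and 228 rescaled RPKM in WT and at 169.8, 173 and 193 in tSH2Δ. It was the single abundant gene of the 10, at the 89.0th percentile of all genes in WT and the 89.6th in tSH2Δ. All tSH2Δ libraries were below all WT libraries, with a limma log2 fold change of -0.44 (SE 0.061, adjusted p = 0.000166). This direction holds relative to the median gene, since the log2 fold change was 0.14 with RPKM as deposited (called higher) and 0.064 after quantile normalization (not called).

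IDP2 encodes the cytosolic isocitrate dehydrogenase that makes NADPH and is repressed in glucose. IDP2 (YLR174W, chromosome XII, 504591 to 505829) stood at 7.99, 7.91 and 8.49 rescaled RPKM in WT and at 18.4, 18.2 and 20.4 in tSH2Δ. The groups did not overlap and each was tight. Its means were 8.13 ± 0.313 and 19.0 ± 1.26 (SD, n = 3), a ratio of 2.34 and a limma log2 fold change of 1.13 (SE 0.065, adjusted p = 6.69e-07).

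The direction and call of ADR1, ICL1, IDP2 and FBP1 were the same under the 3 scalings. Their log2 fold changes were 2.42, 1.78, 1.66 and 1.58 with RPKM as deposited and 1.74, 1.01, 0.72 and 0.68 after quantile normalization, in that order. All genes tested included 33.4% that were called higher under the 3 scalings, so a share of 4 in 10 is near that of all genes. All 10 genes were called higher with RPKM as deposited, as were 72.4% of all genes tested. In the authors' deposited table of changed genes, 6 of the 10 genes are listed, the same that were called higher after scaling to the median gene. The authors' deposited table gives log2 ratios of 2.42 for ADR1, 1.78 for ICL1, 1.67 for IDP2, 1.58 for FBP1, and 0.94 for both SFC1 and MLS1. These ratios are of RPKM as deposited, not scaled to the median gene. It lists 2890 genes, 2405 higher and 485 lower, and comes from the same RPKM values. All have a log2 ratio of at least 0.500 in size and a DESeq2 adjusted p under 0.05. ACS1 and CAT8 are not listed, though their limma log2 fold changes as deposited were 0.64 and 0.63. The genes listed higher are 36.6% of all genes in the table of RNA levels.

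**Figure D3:**
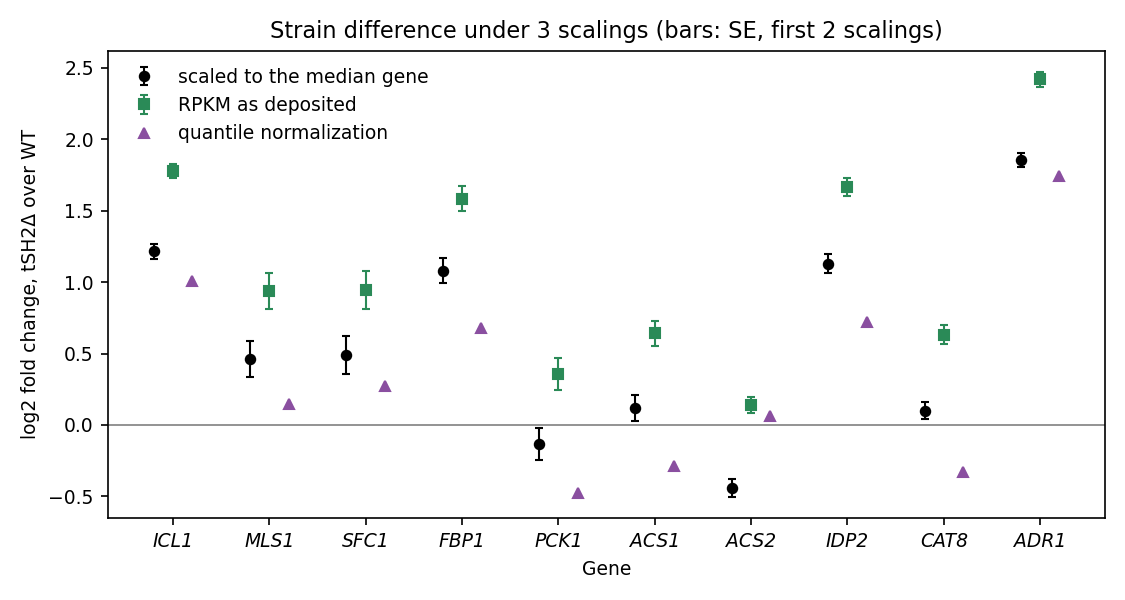
Log2 fold change (y axis, tSH2Δ over WT) of the 10 genes (x axis) after scaling to the median gene, with RPKM as deposited, and after quantile normalization, with bars for the SE of the first 2. ADR1, ICL1, IDP2 and FBP1 lie above 0 in all 3, from 0.68 to 2.42, while PCK1, ACS1 and CAT8 lie above 0 as deposited and below it after quantile normalization.

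Genes of low level in WT tended to be higher in tSH2Δ, and 9 of the 10 genes were of low level, between percentiles 6.71 and 24.6 in WT. Among tested genes with 16 to 32 rescaled RPKM in WT, the range of ICL1 and ADR1, the median log2 fold change was 0.40. It was 0.61 for genes at 8 to 16, the range of IDP2, ACS1 and CAT8, 0.50 at 4 to 8, the range of FBP1 and PCK1, and 0.46 at 2 to 4, the range of MLS1 and SFC1. In these 4 ranges 55.4% to 71.9% of genes were called higher. ADR1, ICL1, IDP2 and FBP1 thus stood above the median of genes at their level, SFC1 and MLS1 stood close to it, and PCK1, ACS1 and CAT8 stood below it. For genes at 128 to 256 rescaled RPKM, the range of ACS2, the median was -0.52, against -0.44 for ACS2.

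**Figure D4:**
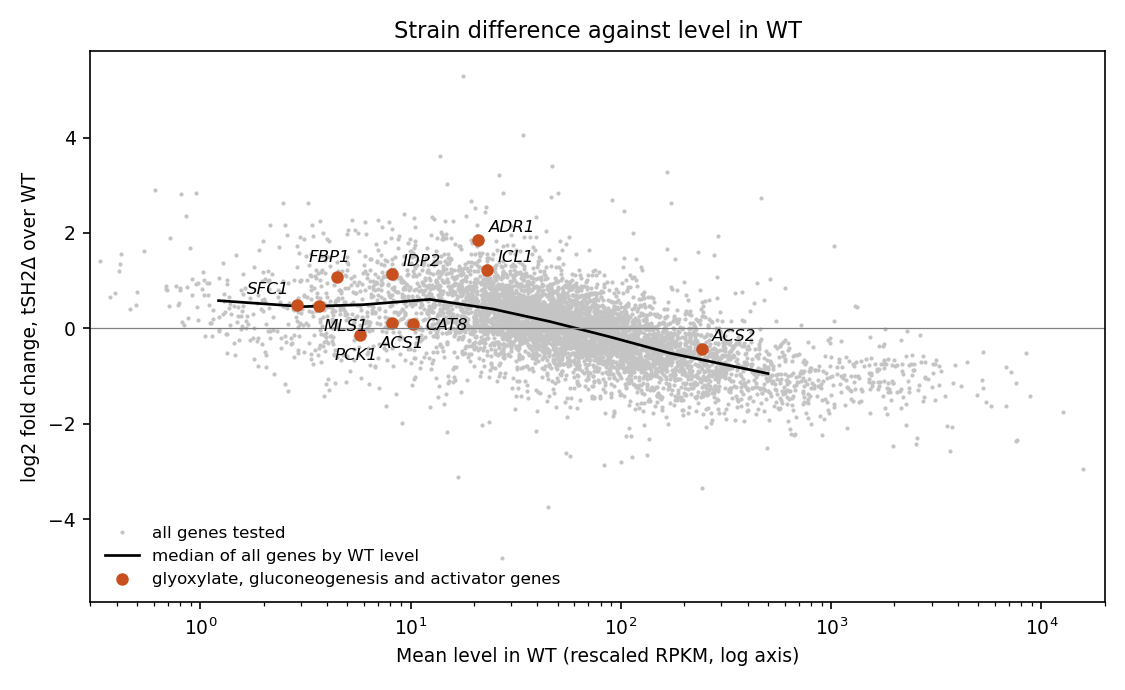
Log2 fold change (y axis, tSH2Δ over WT) against the mean level in WT (x axis, rescaled RPKM, log scale) for all genes tested in grey and the 10 genes in colour, with a line through the medians of genes grouped by WT level. The line falls from 0.58 in the lowest group to -0.95 in the highest, with ADR1, ICL1, IDP2 and FBP1 above it and PCK1, ACS1 and CAT8 below it.

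The balance between each enzyme and its counterpart was compared within libraries. A factor per library largely cancels in such a ratio, while quantile normalization, which reshapes the levels within a library, does not. For 6 pairs the log2 ratio of RPKM + 1 was taken in each library, and in all 6 pairs the strains did not overlap with RPKM as deposited. Lack of overlap was common among single genes, of which 42.5% were higher without overlap and 42.2% lower, scaled to the median gene. With 3 against 3 libraries an exact two-sided permutation test cannot give a p under 0.1, and each pair had p = 0.1 (0.1 after Benjamini-Hochberg adjustment over the 6 pairs). FBP1 against PFK1, a subunit of phosphofructokinase, which catalyses the opposing step of glycolysis, went from -7.10 ± 0.12 to -4.73 ± 0.052 (SD, n = 3), a 5.16-fold shift toward FBP1. PCK1 against CDC19, the main pyruvate kinase, went from -9.93 ± 0.044 to -8.53 ± 0.21, a 2.63-fold shift toward PCK1. This shift rests on the scaling, since after quantile normalization the strains overlapped for PCK1 against CDC19, with a log2 difference of -0.047 (exact permutation p = 0.9), while for FBP1 against PFK1 it was 1.26. Both glycolytic genes were called lower, PFK1 by -1.37 and CDC19 by -1.62. The shift of PCK1 thus came with a PCK1 level that was not called. A fall was the rule at the WT level of PFK1 and CDC19, above 256 rescaled RPKM. There 93.3% of all genes were called lower, and the median gene changed by -0.95. After quantile normalization PFK1 stood at -0.58 and CDC19 at -0.43, both still called lower, against -0.22 for the median gene of that range.

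At the branch point of isocitrate, ICL1 against IDH1, a subunit of the mitochondrial isocitrate dehydrogenase, went from -2.29 ± 0.14 to -1.06 ± 0.011 (SD, n = 3), a 2.35-fold shift. IDH1 itself was not called (log2 fold change -0.03). At the WT level of ICL1 the median log2 fold change of all genes tested was 0.40, and at that of IDH1 it was -0.17. The cytosolic IDP2 gained 2.89-fold on its mitochondrial relative IDP1, from -4.93 ± 0.087 to -3.40 ± 0.047. Genes at the WT level of IDP2 and ACS1 had a median log2 fold change of 0.61. At the level of IDP1 the median was -0.95, and at that of ACS2 it was -0.52. ACS1 gained 1.41-fold on ACS2, from -4.70 ± 0.12 to -4.20 ± 0.026, and stood far below it in each strain, with ACS1 at 0.0385 of the ACS2 level in WT and 0.0544 in tSH2Δ (ratios of RPKM + 1). After quantile normalization the direction turned, with ACS1 losing on ACS2 by a log2 difference of -0.35, and ICL1 against IDH1 and IDP2 against IDP1 stood at 0.77 and 0.63. MLS1 moved the other way against DAL7, the malate synthase gene induced by allantoin. Their log2 ratio went from -1.70 ± 0.10 to -3.29 ± 0.18, and the difference was -1.61 after quantile normalization. DAL7 rose from 14.7 ± 0.993 to 60.4 ± 1.85 rescaled RPKM (SD, n = 3), a limma log2 fold change of 1.97 (adjusted p = 1.82e-08). MLS1 and DAL7 are close paralogs, and the sources used here do not say how the counting shared reads between them, so both values are uncertain.

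Of 15 other enzymes and carriers of the route, 6 were called higher, 5 lower and 4 in neither direction, with a list median of 0.064 on the log2 scale. This is near the shares of all genes tested, 41.6% higher and 41.9% lower. DAL7 rose furthest, followed by MDH2 (0.97), the cytosolic malate dehydrogenase of gluconeogenesis, and AGX1 (0.95), which makes glycine from glyoxylate. MAE1, the mitochondrial malic enzyme, changed by -1.71, PYC2, a pyruvate carboxylase, by -0.92, and MDH3, the peroxisomal malate dehydrogenase, by -0.71. MAE1 lies on chromosome XI. As deposited, 11 of the 15 were higher and 3 lower, against 72.4% and 17.3% of all genes. After quantile normalization 6 were higher and 7 lower, against 40% and 41.1%.

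Among 17 other targets of Cat8 and Adr1, 11 were called higher and 3 lower, 3 passed in neither direction, and the list median was 0.50. Of these 17 genes, 16 lay under 32 rescaled RPKM in WT. In the ranges of WT level under 32, 55.4% to 71.9% of all genes were called higher and the medians ran from 0.40 to 0.61, against 41.6% higher and 41.9% lower among all genes tested. ALD4, the mitochondrial acetaldehyde dehydrogenase, rose from 22.9 ± 0.961 to 138.8 ± 18.2 rescaled RPKM (SD, n = 3), a limma log2 fold change of 2.54 (adjusted p = 3.96e-08). ADH2, the alcohol dehydrogenase that consumes ethanol, rose by 1.88, and CTA1, the peroxisomal catalase, by 1.37. The fatty acid oxidase gene POX1 changed by -0.37, the transporter gene ATO3 by -0.32 and the peroxisomal reductase gene SPS19 by -0.30, and with RPKM as deposited these stood at 0.070, 0.25 and 0.26. The list has 2 genes on chromosome XI, neither of them called. After quantile normalization 8 of the 17 were called higher and 6 lower, against 40% and 41.1% of all genes.

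Of 18 genes of the Snf1 kinase, the Mig repressors and partner regulators, 8 were called higher, 6 lower and 4 in neither direction, with a list median of 0.069. These counts are near the shares among all genes tested, 41.6% higher and 41.9% lower. SIP4, an activator of gluconeogenic genes whose own gene depends on Cat8, rose from 2.51 ± 0.150 to 14.7 ± 0.433 rescaled RPKM (SD, n = 3), a limma log2 fold change of 2.16 (adjusted p = 4.42e-08). USV1 rose by 1.33 and RDS2, a zinc-cluster regulator of gluconeogenesis, by 1.11. HXK2, the hexokinase that also takes part in glucose repression, fell by 1.28 on the log2 scale, from 1527 ± 62.0 to 629.8 ± 18.1 rescaled RPKM (SD, n = 3). After quantile normalization HXK2 changed by -0.38. Among genes above 256 rescaled RPKM in WT, 93.3% were called lower, with a median of -0.95. GLC7, the phosphatase that acts against Snf1, changed by -0.62, but was not called as deposited (-0.044) or after quantile normalization (-0.088). MIG3 changed by -0.35, and by 0.21 as deposited. Named outside the rule, after their values were seen, MIG1 and MIG2, repressors that act in glucose, rose by 0.86 and 0.54, and SNF1 itself changed by -0.14 (0.44 as deposited). With RPKM as deposited 16 of the 18 were higher and 1 lower, against 72.4% and 17.3% of all genes. After quantile normalization 8 were higher and 4 lower, against 40% and 41.1%.

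All 10 genes listed here for the GID ubiquitin ligase were called higher, and their log2 fold changes had a median of 0.83 and none below 0. The list was chosen with earlier results of these data known. Among all genes tested 41.6% were called higher, and among those at 2 to 64 rescaled RPKM in WT, where all 10 GID genes lay, 53.0% to 71.9% by range of level. GID11 rose from 7.93 ± 0.191 to 41.1 ± 1.04 rescaled RPKM (SD, n = 3), a limma log2 fold change of 2.24 (adjusted p = 8.14e-09). GID10, a substrate receptor of the ligase, rose by 1.87 and GID8, a scaffold subunit, by 1.56. UBC8, the ubiquitin-conjugating enzyme of the complex, had the smallest value at 0.36. After quantile normalization 8 of the 10 were called higher, against 40% of all genes, and the other 2, UBC8 and GID7, were not called. RNA levels say nothing of the amount or activity of the ligase.

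**Figure D5:**
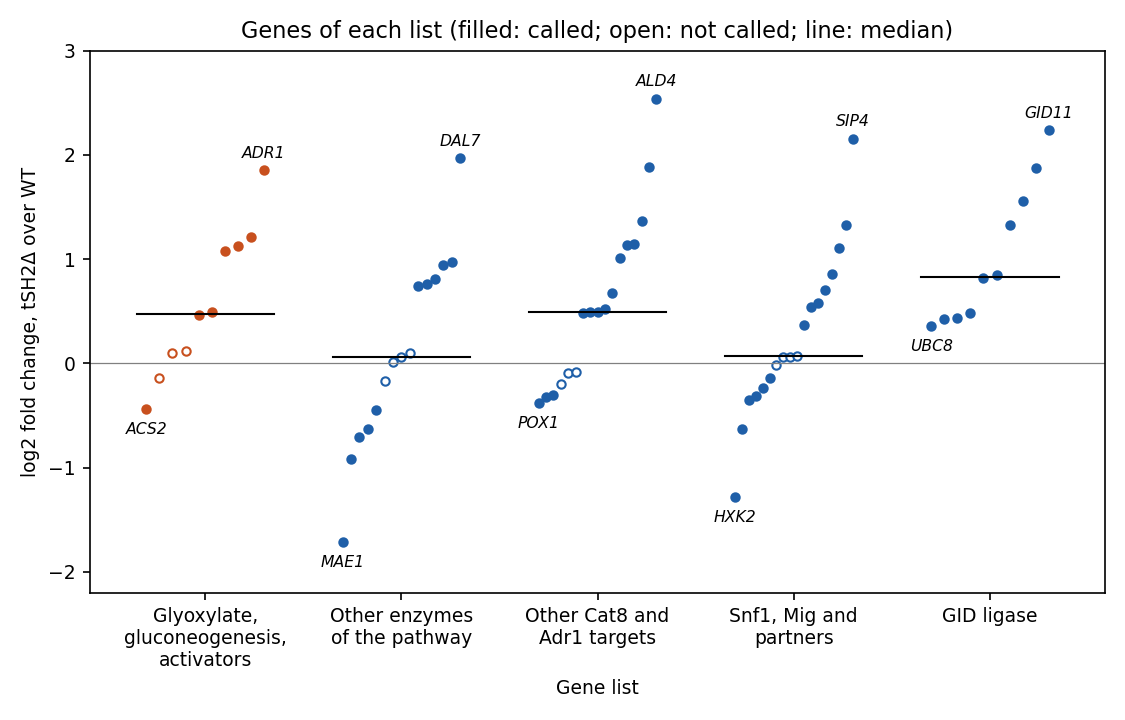
Log2 fold change (y axis, tSH2Δ over WT, scaled to the median gene) of each gene in the 5 lists (x axis), with filled points for called genes, open points for genes not called, and a line at each median. The listed GID genes all lie above 0, from 0.36 to 2.24, while the other lists hold genes on both sides of 0.

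Of the 20 measured genes adjacent to the 10 genes, 9 were called higher and 11 lower, beside 41.6% and 41.9% of all genes tested, and the median of the 20 was -0.18. Beside the 7 called genes, 8 of 14 neighbours were called in the direction of their member. ADR1 lies between YDR215C (-0.48) and RAD9 (-0.21). ICL1 lies between VHR2 (1.12) and RRT13 (1.93), which were both higher, and so were DCP2 (0.53) and DMA2 (0.83) beside MLS1. FBP1, at 1.08, lies 191 bases from PSY3 (1.13), while SEC61 on its other side changed by -1.29. None of these annotated genes overlaps a member of the 10. The table also lists 674 identifiers without a match in the annotation, whose overlap was not checked.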

How the data were processed

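RNA-seq of 6 libraries was used, from rRNA-depleted stranded total RNA read as 50-base single ends per the labels' protocols. The 6 ATAC-seq libraries were not used here. The RPKM table that the authors deposited lists 6571 named genes and 1 row without a name, which held 0.513% to 0.926% of reads and was left out. They also deposited, per the file headers, a table with DESeq2 adjusted p-values and a log2 ratio of mean RPKM plus 1. The submitters' processing notes name sacCer3, Bowtie 1.1.2 and HTSeq 0.6.1 among other tools, with no role. Annotation, strand setting and the handling of reads with several matches were not given in the sources used here, so reads of an overlapping or antisense gene could be included.

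RPKM times gene length gave whole reads for 100% of values (tolerance 0.01 reads). RPKM was divided by a median-ratio size factor per library (0.813 to 0.829 in WT, 1.21 to 1.24 in tSH2Δ). Genes that reached 1 RPKM in 3 or more libraries were fitted with limma 3.58.1 in R 4.3.3 (intensity trend, two-sided) on log2(rescaled RPKM + 1). No replicate pair agreed within sampling noise (chi-square per gene 3.11 to 18.3), so none was merged as a repeated deposit. Gene names and coordinates (1-based) are those of RefSeq (assembly R64, as in sacCer3), whose table matched 5897 identifiers. Exact permutation tests used SciPy 1.17.1.

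Beside the 10 genes, the text names SPT6, the partner of each ratio, in each list up to 3 called genes that rose most and up to 3 that fell most, and genes adjacent to the 10. UBC8, GID7, MIG1, MIG2 and SNF1 were named after their values were seen. The members and lists were chosen with earlier results of these data known. Alternatives changed the pseudocount, filter, scaling, model, block, chromosome XI and each replicate.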

Additional observations from a re-analysis of the deposited data

How the results depend on the processing

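The scaling changed the most calls among the 10 genes. With RPKM as deposited 4565 genes were called higher and 1091 lower, against 2626 and 2640, and of the 10 genes 10 were higher and 0 lower, all with log2 fold changes above 0. PCK1 then stood at 0.36, ACS2 at 0.14, POX1 at 0.070, ATO3 at 0.25, SPS19 at 0.26 and MIG3 at 0.21, each opposite in sign to its value relative to the median gene. After quantile normalization 4 of the 10 genes were higher and 3 lower (PCK1, ACS1 and CAT8), against 40% and 41.1% of all genes. ACS1 then stood at -0.29, CAT8 at -0.33 and ACS2 at 0.064. The cause was not tested. ADR1, ICL1, IDP2 and FBP1 kept direction and call in all 16 alternatives, with ranges of 1.68 to 2.42, 1.01 to 1.78, 0.72 to 1.66 and 0.68 to 1.58. CAT8 was called higher with voom on whole reads (0.15, limma adjusted p = 0.0151). ACS1 was called higher without WT replicate 1 (0.21, limma adjusted p = 0.0492). A filter of at least 5 RPKM left SFC1 untested and 5 of the 10 genes higher, and PCK1 has no value without chromosome XI. Leaving out each library gave 2472 to 2585 genes higher and 2513 to 2607 lower, with 6 to 7 of the 10 genes higher and 1 lower.

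With replicate number as a block, 2521 genes were higher and 2533 lower, and of the 10 genes 6 and 1. The labels do not say what a number shares, same-numbered libraries deviated with correlations of -0.28 to -0.086, and the numbers were not taken as pairs. The 6 paired ratios kept their direction under each pseudocount tried and with each library left out. Other scalings of the ratios were added after the data were seen: scaling to the median gene kept all 6 directions, and quantile normalization reversed ACS1/ACS2 (-0.35) and PCK1/CDC19 (-0.047). Fitting RefSeq genes only, a choice made after the data were seen, changed no call among the 10 genes. At 39 to 155 reads, depth limits SFC1 most.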
